A study of Mus musculus with 2 samples.

Results

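The genes described here are 45 components of Wnt signalling, taken by gene symbol through the probe annotation of the array: 9 Wnt ligands, the ligand-modifying enzyme Porcn, the R-spondin Rspo1, 9 Frizzled receptors, 2 LRP co-receptors, 8 secreted antagonists, 3 Dishevelled proteins, 2 Naked cuticle proteins, 5 genes of beta-catenin and its destruction complex, 4 TCF and LEF factors and the target Sp5. They stand among 16593 genes measured. Named probes were found for 42 of them, 58 probes in all. Fzd5, Axin1 and Tcf7 were not analysed here. RNA came from primary, unpassaged cultures of dental epithelial stem cells, grown as colonies for 7 days after dissection from the labial cervical loop, the stem cell niche of the mouse incisor. The control cells were Med1 fl/fl and the knockout cells were Med1 fl/fl with a Krt14 driven Cre, both of strain C57/BL6 and 3 months of age. The loxP-flanked allele was therefore shared by both groups. The Krt14 promoter is known to drive Cre in epithelial cells, so mesenchymal cells carried over from the dissection may keep Med1, and recombination itself was not measured here. Each genotype was represented by 3 mice and 1 array. The RNA of the 3 mice is taken to be pooled, which the labels do not say outright. With 1 array per genotype there is no replicate error, so every difference below is a difference between these arrays, with no test, and "higher" and "lower" refer to the knockout array against the control array. The number of arrays limits the precision. Sex-linked transcripts also differed between the arrays, with values given beside Porcn below. Sex of the mice and genotype therefore cannot be told apart in any difference here.

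Wnt ligands are secreted lipid-modified proteins. In the canonical branch they bind a Frizzled receptor together with Lrp5 or Lrp6, Dishevelled is recruited, and the destruction complex of Axin, Apc and Gsk3b stops marking beta-catenin for degradation, so that beta-catenin joins TCF and LEF factors on target genes. Axin2, Nkd1, Nkd2, Notum and Sp5 are known both as targets and, for several of them, as feedback inhibitors. In ectodermal organs the pathway is known for starting teeth and hair follicles, and in the mouse incisor for its part in ameloblast differentiation.

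Signal is given as the mean bead intensity on a linear scale, in which an undetected probe still has a signal because of background; the lowest signals of detected probes were 237 and 241. Detection of a probe means a deposited p-value under 0.01 against the negative control beads of the same array. By this rule 43.1% of control and 42.6% of knockout probes were detected. Differences are in normalized, background-corrected log2 intensity, knockout minus control. Where only 1 array detected a gene, its fold is a lower bound, marked "at least" and set against the dimmest detected probe of the other array or the gene's own value there, whichever was higher. Such bounds hold only on this background-corrected scale. They can exceed the fold of the signals themselves and are no bounds under other background settings. The between-probe standard deviation of a difference, over the 1830 genes for which both arrays detected several probes, was 0.31 on the log2 scale. It is the only measured error and is technical. Med1 itself had a signal of 914 on the control and 412 on the knockout array at its brightest probe, and whether this probe lies in the deleted part is not stated by the labels, so it is no check of the genotype. Markers of basal epithelium were present on both arrays, with Krt14 at 38349 and 36803 and Trp63 at 8366 and 6783, while Lgr5, a marker of the incisor stem cell niche, was not detected on either.

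Most detected members differed by less than 2-fold between the arrays, and the exceptions were a few ligands, receptors and inhibitors. Of the 42 measured members, 27 were detected on at least 1 array, 21 of them on both, 3 in the control alone and 3 in the knockout alone. At a difference of at least 2-fold, 3 of the 27 were higher (Wnt6, Wnt4 and Wif1) and 5 lower (Nkd2, Fzd7, Wnt10b, Sfrp1 and Fzd2). Over all 8217 detected genes, 8.35% were at least 2-fold higher and 6.52% at least 2-fold lower, against 11.1% and 18.5% of the members. With lower bounds for the genes seen on 1 array, 2 of the 27 members were higher and 3 lower, against 6.86% and 4.98% of all detected genes. In bulk RNA such as this, fewer cells of a type and less RNA per cell cannot be told apart. The median difference was -0.05, and -0.06 over all detected genes. By sign, 13 members were above 0 and 14 below, and 9 of the 27 were within 0.31 of 0. Over all 8217 detected genes, 3633 were above 0 and 4577 below. Of these genes 3638 were within 0.31 of 0, a larger share than among the members. The plot of normalized intensities by gene shows that the long lines belong to a handful of members.

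**Figure D1:**
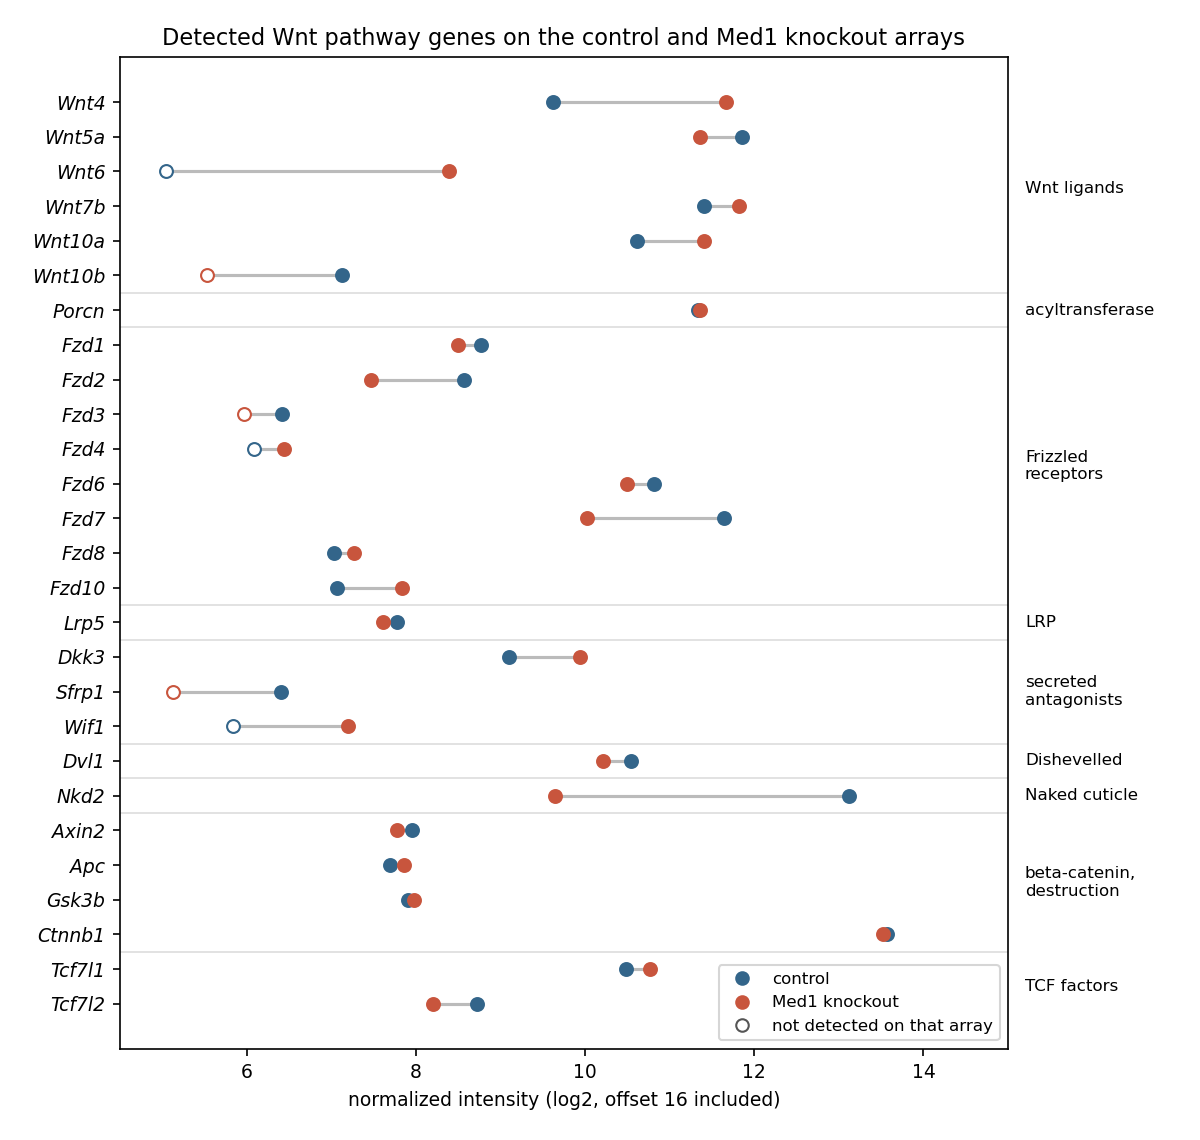
Normalized log2 intensity (horizontal axis) of the 27 Wnt pathway genes detected on at least 1 array, by role, each shown by its brightest probe. Blue points are the control array, red points the knockout array, and open points mark an array on which the probe was not detected. Nkd2 runs from 13.12 to 9.64 and Ctnnb1 lies at 13.57 and 13.52.

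Without background correction, 4 members kept a difference of at least 2-fold: Nkd2 and Fzd7 were lower, and Wnt4 and Wnt6 higher. Nkd2, a cytoplasmic inhibitor that binds Dishevelled, had the largest drop of the members, and Fzd7 is a Wnt receptor known from intestinal stem cells. Wnt4 and Wnt6 are ligands made by epithelia. Their promoter windows, from 250 bases before to 50 after the annotated start of the gene, are shown for these reasons, and that of Sp5 is shown because it holds the core sequence bound by TCF and LEF factors. The sequences are from RefSeq, build GRCm38.p6, read along the strand of the gene. CTTTGA, or TCAAAG on the other strand, is in capitals; the motif does not overlap its own complement.

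Nkd2, chr13:73847582-73847881, minus strand: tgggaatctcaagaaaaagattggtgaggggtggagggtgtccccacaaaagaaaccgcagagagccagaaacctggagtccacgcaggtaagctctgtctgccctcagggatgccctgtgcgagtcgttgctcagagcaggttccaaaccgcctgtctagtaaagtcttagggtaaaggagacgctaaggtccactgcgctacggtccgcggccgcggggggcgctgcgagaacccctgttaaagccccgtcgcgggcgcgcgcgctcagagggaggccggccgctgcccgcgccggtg

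Fzd7, chr1:59481897-59482196, plus strand: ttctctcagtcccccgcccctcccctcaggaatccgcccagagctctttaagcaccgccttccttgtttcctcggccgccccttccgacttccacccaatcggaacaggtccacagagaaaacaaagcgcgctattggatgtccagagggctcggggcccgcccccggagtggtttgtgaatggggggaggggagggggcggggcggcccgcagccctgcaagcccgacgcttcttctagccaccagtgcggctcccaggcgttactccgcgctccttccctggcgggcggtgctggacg

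Wnt4, chr4:137277385-137277684, plus strand: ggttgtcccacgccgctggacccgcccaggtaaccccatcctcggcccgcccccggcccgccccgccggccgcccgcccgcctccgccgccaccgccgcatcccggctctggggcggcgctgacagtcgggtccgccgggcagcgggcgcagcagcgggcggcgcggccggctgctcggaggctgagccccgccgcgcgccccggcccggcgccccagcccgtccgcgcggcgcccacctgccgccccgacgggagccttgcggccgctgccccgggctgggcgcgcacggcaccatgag

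Wnt6, chr1:74771642-74771941, plus strand: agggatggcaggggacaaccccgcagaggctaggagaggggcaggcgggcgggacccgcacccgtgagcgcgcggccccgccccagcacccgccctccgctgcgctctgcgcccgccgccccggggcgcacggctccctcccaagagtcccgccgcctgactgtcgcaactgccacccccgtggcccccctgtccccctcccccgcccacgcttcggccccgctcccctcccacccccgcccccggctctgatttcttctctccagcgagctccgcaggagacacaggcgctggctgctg

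Sp5, chr2:70474673-70474972, plus strand: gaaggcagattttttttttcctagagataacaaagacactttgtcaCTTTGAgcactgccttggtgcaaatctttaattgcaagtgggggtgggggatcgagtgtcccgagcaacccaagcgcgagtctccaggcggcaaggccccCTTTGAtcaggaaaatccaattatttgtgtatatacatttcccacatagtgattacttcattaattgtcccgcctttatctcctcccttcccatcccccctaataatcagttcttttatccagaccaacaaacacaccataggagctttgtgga

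None of the first 4 windows holds CTTTGA on either strand, and the Sp5 window holds it at positions -204 and -104 from the gene's start. A match is only a match of letters, and its lack in a short window says nothing about the factor. Only this 1 form was searched for, so a window without it may hold another form of the core. Windows were matched for 30 of the 45 members, and 6 of these 30 genes (20.0%), Dkk1, Fzd1, Gsk3b, Lef1, Sp5 and Wnt11, held the motif in at least 1 window. Among all 27025 genes of the same table the share was 18.2%, in windows of the same length. Windows on chromosome 18, where Apc and Fzd8 lie, were set aside for the members. No such filter was applied to the share over all genes. The 4 windows were rich in G and C, at 63.0% for Nkd2, 66.7% for Fzd7, 84.3% for Wnt4 and 76.7% for Wnt6, with a median of 52.7% over all windows.

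Among the ligands, Wnt4 and Wnt6 were higher and Wnt10b lower, and 3 others, known in dental and skin epithelium, differed by less than 2-fold. Wnt4, a ligand of both canonical and other branches, read 971 on the control and 3375 on the knockout array at its brighter probe. Its second probe read 474 and 1670.4. Both probes placed the knockout array above the control array. The differences were 2.03 and 2.33, or 4.10-fold and 5.02-fold, and the first was the 102nd highest of 7272 genes detected on both arrays. Wnt6, an epithelial ligand of the tooth germ, read 177 on the control array, where it was not detected (detection p-value 0.277), and 483 on the knockout array. It was at least 4.26-fold higher, and its signal without background correction differed by 1.46 on the log2 scale.

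Wnt10a, a ligand whose mutations cause missing teeth in humans, read 1746 and 2819, a difference of 0.78 or 1.72-fold. Wnt6 and Wnt10a are next to each other among protein-coding genes on chromosome 1 in the RefSeq table, and both were higher. Wnt7b, an epithelial ligand, read 2922 and 3784 at its brighter probe and 752 and 800.1 at the other, with differences of 0.41 and 0.19, the second within the between-probe deviation. Wnt5a, the main ligand of the beta-catenin-independent branch, read 3881 and 2744 at 1 probe and 599 and 391 at another. Both Wnt5a probes were lower, by -0.51 and -0.83. Wnt10b, a ligand of hair placodes, read 300.4 in the control and 203 in the knockout, where it was not detected (detection p-value 0.0902). It was at least 1.69-fold lower, short of the 2-fold that its unbounded difference of -1.59 passes. Wnt3a, Wnt7a and Wnt11 were not detected, with signals from 169 to 209.

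Ligand processing and R-spondins gave little. Porcn, the enzyme that attaches the lipid that Wnt ligands need for secretion, read 2757 and 2750.1 at its brighter probe, a difference of 0.04. Its second probe, annotated to another transcript, read 506 and 696, a difference of 0.71. This gap of 0.68 was the widest among the 6 members with more than 1 probe detected on both arrays; those of Wnt4, Wnt5a, Wnt7b, Dkk3 and Ctnnb1 were 0.03 to 0.33. Porcn is X-linked, and the arrays differed in sex-linked transcripts: Xist read 168 on the control and 3131 on the knockout array, and the Y-linked Eif2s3y 2472 and 888. The Y-linked Usp9y read 478 and 149 and was not detected on the knockout array. The part of sex in the Porcn values, or in any other difference described here, was not tested. Rspo1, a secreted protein that keeps Frizzled receptors at the cell surface, read 165 and 167 and was not detected.

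**Figure D2:**
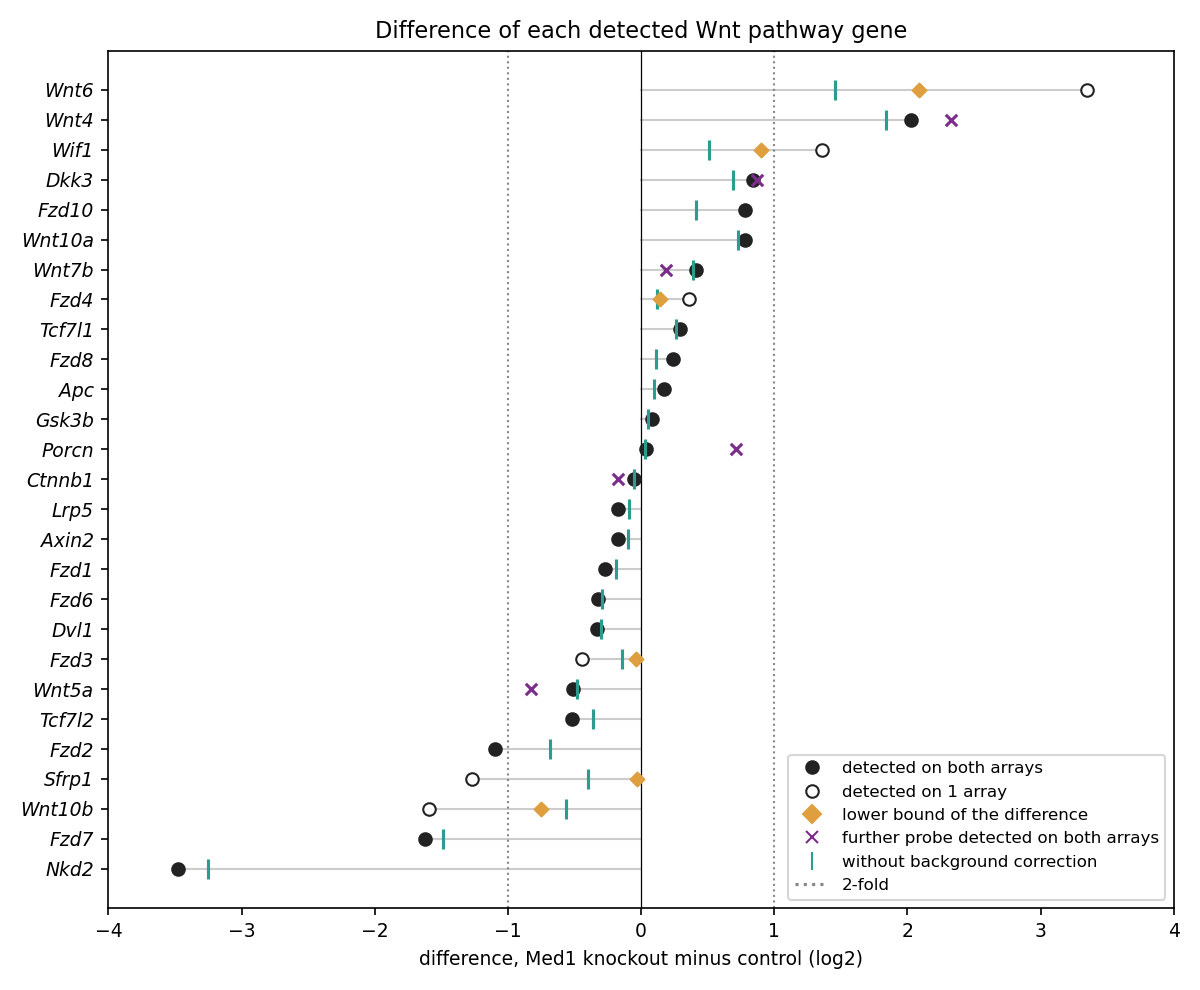
Difference in normalized log2 intensity, knockout minus control, of the 27 detected Wnt pathway genes in order of size. Black points are genes detected on both arrays and open points genes detected on 1 array, with their lower bound as a diamond; crosses are further probes, green bars the values without background correction, and dotted lines 2-fold. Wnt6 moves from 3.35 to 1.46 without background correction, whereas Nkd2 moves from -3.48 to -3.25.

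The Frizzled receptors were all detected, 8 of 8 measured, and none was 2-fold higher while 2 were lower. The shares were 0.0% and 25.0%, against 8.35% and 6.52% of all detected genes. Fzd7 read 3368 on the control and 1167 on the knockout array, a difference of -1.62 or 3.08-fold lower, the 75th lowest of 7272 genes. Fzd2, a receptor that also takes Wnt5a, read 550.4 and 331, a difference of -1.10 or 2.14-fold lower, and 1.61-fold lower without background correction, under the 2-fold rule. These are the receptors of 1 subfamily with Fzd1, which read 605 and 508, a difference of -0.27 that is less than the between-probe deviation. Fzd6, a receptor of planar polarity that orients hairs, read 2000 and 1582, a difference of -0.32.

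Fzd10 was the only Frizzled receptor above 0 by more than 0.5, with 295 and 380.4 and a difference of 0.78, and this was 0.41 without background correction. Its other probes were not detected. Fzd8 read 291 and 309, a difference of 0.24. Fzd3 and Fzd4 sat at the detection limit: Fzd3 read 243 and 221 and was detected in the control alone, and Fzd4 read 226 and 245 and was detected in the knockout alone, at least 1.03-fold lower and at least 1.10-fold higher. Of the co-receptors, Lrp5 read 384 and 346, a difference of -0.17, and Lrp6 was not detected (216 and 219).

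The secreted antagonists were mostly below detection, with 3 of 8 detected. Dkk3, a divergent Dickkopf protein that binds Wnt co-receptors weakly if at all, was higher at both detected probes, 720 and 1111 at the first and 632 and 974 at the second. The differences of 0.84 and 0.87, or 1.79-fold and 1.83-fold, were 0.03 apart, and the third probe was not detected. Wif1, which binds Wnt ligands outside the cell, read 214 on the control array, undetected, and 302 on the knockout array, at least 1.87-fold higher. Without background correction its difference was 0.51, a smaller fold than that bound. Sfrp1, a soluble Frizzled-like decoy, read 242 on the control array, just above the lowest detected signal, and 185 on the knockout array. Its difference of -1.27 passes 2-fold, but its bound is at least 1.02-fold lower, so no sizeable difference was detectable at this signal. Dkk1, Dkk2, Sfrp2, Sfrp5 and Notum, the enzyme that strips the lipid from Wnt ligands, were not detected on either array, at 169 to 192.

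In the cytoplasm, Nkd2 stood apart. It read 8829 in the control and 930.4 in the knockout, where it was still detected. The difference was -3.48, or 11.2-fold lower and 9.50-fold lower without background correction. Of 7272 genes detected on both arrays only 8 had a lower value, which makes it the 9th lowest. It has 1 probe, so no second probe checks it. Its paralog Nkd1 was not detected (170 and 183). Dvl1, a Dishevelled that carries the signal from the receptors, read 1668 and 1316, a difference of -0.33, while Dvl2 and Dvl3 were not detected.

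Beta-catenin and the measured parts of its destruction complex gave nearly equal readings. Ctnnb1, beta-catenin itself, read 12078 and 12080 at its brighter probe and 7062 and 6475 at the other, with differences of -0.05 and -0.17. Apc, the scaffold that holds beta-catenin in the complex, read 372 and 384, a difference of 0.17, with a second probe not detected. Gsk3b, the kinase of the complex, read 405 and 401, a difference of 0.08. Axin2, the inducible scaffold often read as a measure of canonical signalling, read 414 and 371, a difference of -0.17. All 4 were within the between-probe deviation, and the sign of Ctnnb1 turned with median scaling (0.04), that of Gsk3b with median scaling (-0.01) and with no normalization (-0.05), and that of Porcn with no normalization (-0.01).

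Of the DNA-binding factors, Tcf7l1, mainly a repressor in epithelial stem cells, read 1613 and 1880 at its detected probe, a difference of 0.29. Tcf7l2 read 591 and 442, a difference of -0.52, with other probes not detected. Lef1, the factor of hair and tooth placodes, was not detected by either of its probes, at 160 to 170.3 on both arrays. Sp5, a direct target in other tissues, was not detected either (157 and 166). Along with Nkd1 and Notum, Sp5 is 1 of 3 known feedback genes below detection in both genotypes, while Axin2 and Nkd2 were detected in both.

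**Figure D3:**
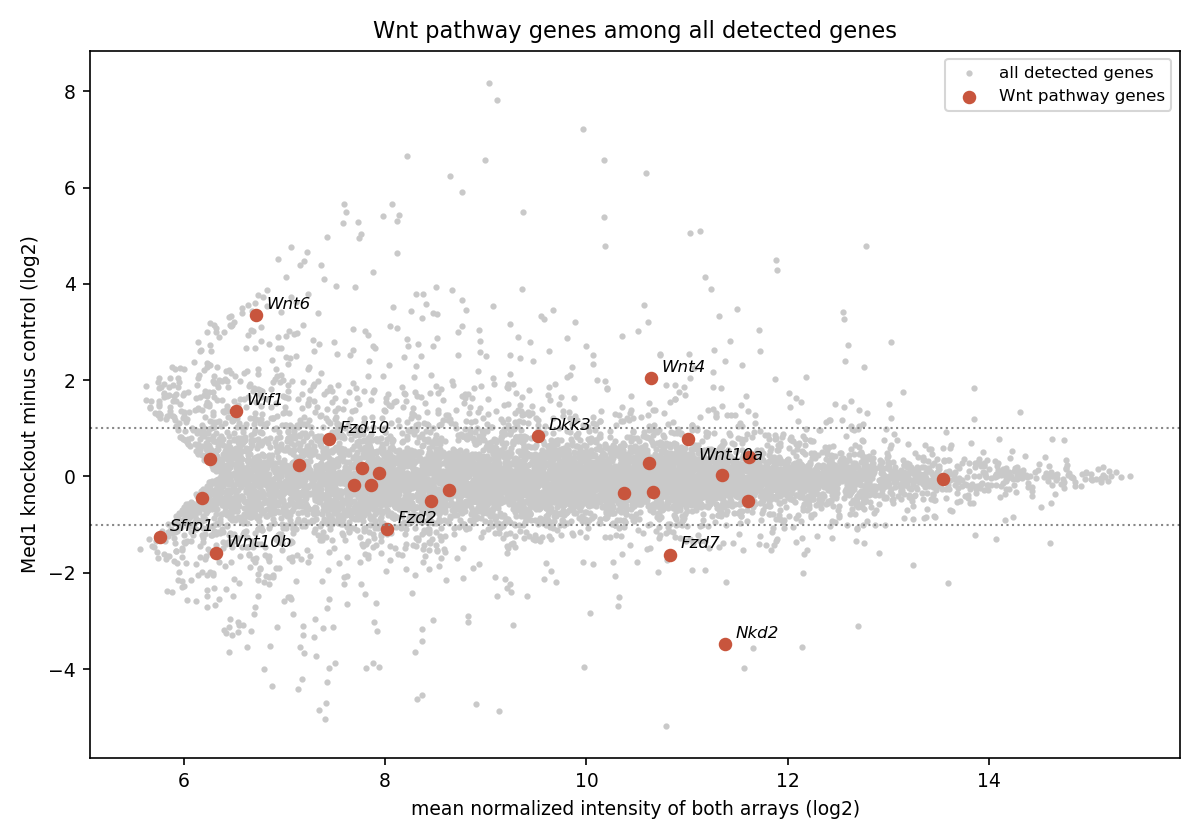
Difference, knockout minus control (vertical axis, log2), against mean normalized log2 intensity (horizontal axis) for all 8217 detected genes in grey and the 27 detected Wnt pathway genes in red; names mark members at 0.7 or more from 0. Dim genes spread more widely, and Nkd2, Fzd7 and Wnt4 lie outside the dotted 2-fold lines at intensities where most genes lie inside them.

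The rest of the pathway was read through 9 further lists, 173 genes without overlap with the 45. Of these 159 were measured and 101 detected, of which 14 passed 2-fold upward and 5 downward (13.9% and 4.95%, against 8.35% and 6.52% of all detected genes), and the median was -0.10. Among 10 other ligands only Wnt5b, a close relative of Wnt5a, was detected, on the control array only (354 against 217), at least 2.29-fold lower. Of 10 detected genes of ligand secretion and extracellular carriers, Gpc3, a glypican, was 2.06-fold higher (4554 and 9502). Its second probe differed by 0.91, and the mean of both probes stayed under 2-fold. Gpc1 (-0.85), Sdc4 (-0.78) and Gpc4 (0.44) differed by less than 2-fold. Gpc3 and Gpc4 are X-linked.

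Among 7 detected further receptors, Ror2, a receptor kinase for Wnt5a, was 2.22-fold higher (489 and 850.4), with Lrp4 at 0.69, Ptk7 at -0.32 and Kremen1 at -0.21. None of 4 further secreted modulators passed 2-fold. They were Tpbg (-0.82), Igfbp4 (0.30), Apcdd1 (0.26) and Sostdc1, an ectodermal Wnt and BMP modulator that controls tooth number, which was bright and nearly equal (6259.9 and 6156). Of 17 detected cytoplasmic regulators, 1 was higher by its unbounded difference, the X-linked Amer1, at least 1.34-fold. Siah1a differed by 0.82. Frat2 and Dact1, detected in the control alone, were at least 1.67-fold and at least 1.04-fold lower.

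Nuclear co-factors were below 0 in 11 of 14 detected genes, against 4577 of all 8217, with a median of -0.31 and none 2-fold lower. Of the 14, 5 were within the between-probe deviation. Tle4, a Groucho corepressor that binds TCF factors, was the exception: undetected at 209 on the control array and at 948 on the knockout array, at least 10.3-fold higher, with its other 2 probes not detected. Without background correction its difference was 2.21, a smaller fold than that bound. Tle1 differed by -0.90 and -0.81 at its probes detected on both arrays, and Tle3 by 0.75 and 0.06. The X-linked Med12, a Mediator kinase-module subunit, differed by -0.62.

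Of 24 detected genes known as targets in at least some tissue, 7 passed 2-fold upward and 3 downward, 29.2% and 12.5% against 8.35% and 6.52% of all detected genes. The median was 0.12. Ccn5, a secreted matricellular protein, was seen on the control array only (656 and 197) and was at least 5.86-fold lower. The ectodysplasin-related receptor Tnfrsf19 was at least 2.58-fold, Msx2 at least 2.68-fold and Msx1 at least 1.78-fold higher, the last 2 being homeobox genes of tooth and hair. Without background correction the differences of these genes were 0.74, 0.65 and 0.62 in that order, each under 2-fold. The textbook targets Ccnd1 (-0.36), Myc (0.14) and Cd44 (-0.40) differed by less than 2-fold; these 3 were picked after their values were seen. So were 4 targets that passed 2-fold with detection on both arrays: Bmp4 (1.44), Edn1 (1.16) and Plaur (1.01) were higher and Sox9 (-1.03) was lower. Without background correction 1 of the 24 targets was higher and 1 lower, against 4.15% and 2.51% of all detected genes.

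In the polarity and calcium branch, 2 of 19 detected genes were higher and 1 lower (10.5% and 5.26%, against 8.35% and 6.52% of all detected genes). Nfatc4 was at least 3.10-fold higher, and differed by 0.87 on the log2 scale without background correction. Vangl1, a core polarity protein, was 2.15-fold higher. The lower gene was Mapk9, the stress kinase JNK2 (2.60-fold lower, and -1.01 at a second probe). Camk2d differed by 0.92. Of 5 detected cadherin partners, Jup, encoding plakoglobin, a beta-catenin relative of desmosomes, was 5.26-fold higher (259 and 669). Its control signal was near the lowest detected signal of 237. Without background correction Jup differed by 1.41 on the log2 scale, a smaller fold. Vcl (0.20), Cdh1 (0.09) and Ctnna1 (-0.02) were nearly equal.

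**Figure D4:**
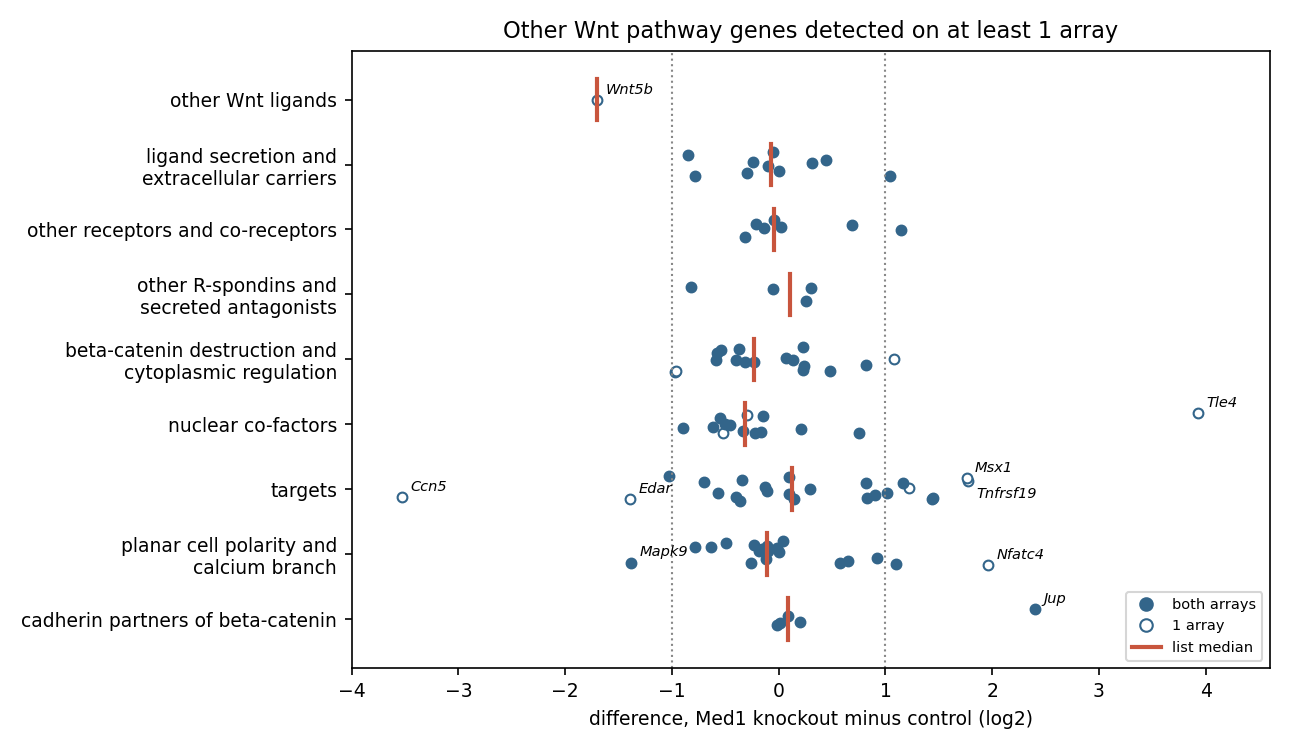
Difference in normalized log2 intensity, knockout minus control, of the detected genes in 9 further lists of Wnt pathway genes (rows). Filled points were detected on both arrays and open points on 1, red bars are list medians and dotted lines 2-fold. Medians lie between -0.31 and 0.12 apart from the first list, which holds 1 detected gene.

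Markers of other cells and of differentiation also differed between the arrays. For scale, 8.35% of the 8217 detected genes passed 2-fold upward and 6.52% downward, or 6.86% and 4.98% by lower bounds. Of 16 measured mesenchymal markers 11 were detected. The knockout reading was higher by 2-fold or more in 9, or 7 by lower bounds, and lower in 0. Their summed normalized intensity was 11823 on the control and 23997 on the knockout array. Sparc, with signals of 10084 and 16288 and a difference of 0.59, made up most of both sums. The largest differences were in Thy1 (at least 15.7-fold), Col1a1 (at least 8.82-fold), Lum (at least 7.14-fold) and Mmp2 (10.1-fold), while Col1a2, Pdgfra, Pdgfrb, Prrx1 and Postn were not detected on either. Ibsp was at least 15.1-fold higher and Sp7 at least 1.55-fold, the detected odontoblast and osteoblast markers, 2 of 6 measured. All 11 detected suprabasal and cornified markers were at least 2-fold higher, led by Krt4 (at least 112-fold), Cdsn (95.7-fold), Sprr3 (79.5-fold) and Lor (33.2-fold). Of 10 detected dental and basal epithelial markers 1 was higher, Krt15 (4.81-fold), and 2 lower, Itga6 (4.26-fold) and Krt5 (2.33-fold), with Bmi1 at -0.43. Ambn, of the ameloblast markers, was at least 8.02-fold higher and Fam20a 7.14-fold lower, 2 detected of 6. Without background correction Thy1 differed by 2.89, Col1a1 by 2.14 and Lum by 1.90 on the log2 scale. On that scale Ibsp differed by 2.96, Krt4 by 5.70 and Ambn by 1.74. Each is a smaller fold than the bound given for the gene. For endothelial cells 1 of 6 measured markers was detected (Flt1, at least 1.82-fold higher). For immune cells it was 1 of 6 (Coro1a, at least 1.49-fold higher). For Schwann cells or melanocytes it was 1 of 4 (Mbp, 4.11-fold higher). The other markers of these lists, and the other probes of Flt1 and Coro1a, were not detected on either array or were not measured. The part of cell composition in the Wnt pathway values was not tested.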

How the data were processed

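RNA of cultured dental epithelial cells was hybridised to Illumina bead arrays, 1 array per genotype. The authors deposited mean bead signal intensity per probe on a linear scale, not normalized, per the file headers and the values, and a detection p-value per probe. The submitters' processing notes name GenomeStudio 2011.1. A second deposited table of intensity values has 1 shared distribution; how it was made is not stated.

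Background was corrected with the normexp model fitted through the deposited detection p-values, with an offset of 16, and log2 values were quantile normalized over all 25697 probes (neqc, limma 3.58.1, R 4.3.3). Symbols came from the platform annotation for 23978 probes, of which 23962 had a gene identifier in the RefSeq table; 1719 probes were unnamed here. Each gene was represented by its probe with the highest mean. With 1 array per genotype no test between genotypes was made, and counts use a 2-fold rule of size in genes detected at p under 0.01 on at least 1 array. The procedure was also run on simulated arrays. The outcome is not reported here and gives no error rate for the 2-fold rule.

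All 45 members are named, and from each other list up to 4 detected genes with the largest absolute difference; 7 further targets, Krt14, Trp63 and Sparc were named after their values were seen. The members and lists were chosen with earlier results of these data known. The 13 alternatives concern background, offset, scaling, the deposited values, detection, probe summary, fold threshold and lower bounds. The array's name in the labels matched each column to its sample, and both arrays were on 1 chip by that name.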

Additional observations from a re-analysis of the deposited data

How the results depend on the processing

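No paired analysis was possible because there is 1 array per genotype, and for the same reason no replicate could be left out. Over 13 alternatives, 24 of the 27 detected members kept their sign under every alternative run, and Ctnnb1, Gsk3b and Porcn did not. None of the 8 members past 2-fold changed sign. Of 291 single values, 265 moved by less than the between-probe deviation and 26 by more.

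The median of the members stayed between -0.11 and 0.01. The count of lower members, 5, became 2 without background correction, with normexp on the signal alone and with the deposited values, and 3 with an offset of 50, with detection on both arrays, at 3-fold and with lower bounds. The count of higher members, 3, became 1 with detection on both arrays and 6 at 1.5-fold. Over all detected genes, the higher and lower shares were 5.53% and 4.11% with detection on both arrays, and 14.6% and 16.4% at 1.5-fold. They were 4.44% and 2.48% at 3-fold, 4.15% and 2.51% without background correction, and 4.17% and 2.54% with the deposited values. With normexp on the signal alone they were 6.01% and 3.94%, with an offset of 50 6.72% and 4.73%, and with lower bounds 6.86% and 4.98%. A larger fold, fewer genes and lower bounds can only lower a count by construction, and a smaller fold can only raise it. For the others the cause was not tested.

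For the 173 other genes, the counts of 14 higher and 5 lower became 22 and 16 at 1.5-fold, 5 and 2 at 3-fold, 4 and 2 without background correction and with the deposited values, 8 and 3 with normexp on the signal alone, and 7 and 2 with detection on both arrays. Within the lists, target counts of 7 higher and 3 lower became 1 and 1 without background correction and with the deposited values, 3 and 1 with normexp alone or detection on both arrays, and 2 and 1 at 3-fold. The polarity and calcium counts of 2 and 1 became 4 and 3 at 1.5-fold, 1 and 0 at 3-fold, 1 higher with normexp alone, an offset of 50 or detection on both arrays, and 0 higher without background correction and with the deposited values. The cytoplasmic regulators went from 1 and 0 to 2 and 3 at 1.5-fold, to 0 higher at 3-fold, with lower bounds, detection on both arrays and every other background setting, and to 1 lower with median scaling and with no normalization. The further receptors went from 1 to 2 higher at 1.5-fold, at a detection p-value under 0.05 and with no detection filter, and to 0 at 3-fold, without background correction and with the deposited values. The co-factors had 2 higher and 2 lower at 1.5-fold and 0 higher with detection on both arrays. The carriers had 2 lower at 1.5-fold and 0 higher at 3-fold and with the mean of probes, and the secreted modulators had 1 lower at 1.5-fold. The other ligands, with Wnt5b alone detected at -1.70, gave a median of -0.69 and 0 lower without background correction, -0.67 and 0 lower with the deposited values, -1.05 with normexp alone, -1.27 with an offset of 50, -1.20 with lower bounds and 0.07 with no detection filter.

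Signals under about 240 were not separable from background, which limits what can be said of 15 members not detected and 6 detected on 1 array.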
